A study of Mus musculus with 4 samples.

Results

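The Tdpoz cluster is a group of related BTB-domain genes on mouse chromosome 3. It was followed here through 8 genes, namely Tdpoz1, Tdpoz2, Tdpoz3, Tdpoz4, Gm10696, Gm10697, Gm4858 and Gm9125. A probe was a member when the array files gave it one of these symbols, which held for 15 of the 39429 non-control probes. They are 8 of the 30199 gene names on the array. The genes were chosen by their higher signals with Rif1 siRNA on these same arrays, so the size of that rise describes the members and supports nothing by itself. RefSeq now lists Gm4858 as Tdpoz8, Gm9125 as Tdpoz9, Gm10697 as Tdpoz7 and Gm10696 as Spopfm2. The probes named Gm10697 are also listed for Tdpoz5 and cannot be assigned to Tdpoz7 alone.

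RNA came from E14tg2a, a line of mouse embryonic stem (ES) cells grown on gelatin without feeder cells, and each of 4 one-color Agilent arrays held 1 condition. The conditions were untreated cells (0 h), cells given a control siRNA for 72 h, and cells given a pair of siRNAs against Rif1 for 48 h or for 72 h. There was no control siRNA array at 48 h, so both times with Rif1 siRNA were set against the control siRNA array of 72 h and share it. With 1 array per condition there is no replicate check and no p-value. An expression level is the processed signal of a probe divided by the 75th percentile of its array. A level is followed by the error that the scanning software gives for the spot, which covers 1 scan and not the spread between cultures. Fewer cells with an active cluster and less RNA per cell cannot be told apart in such bulk RNA.

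Tdpoz proteins pair a MATH (TRAF-like) domain with a BTB/POZ domain. They belong to the family of SPOP, an adaptor that holds substrates with its MATH domain and docks on the CUL3 ubiquitin ligase through its BTB domain. Tdpoz transcripts are known from embryos at the 2-cell (2C) stage, and ES cells pass now and then into a 2C-like state in which such genes are transcribed. RIF1, a chromatin protein that sets replication timing, was depleted in the study, and the arrays were run to see how gene expression responded.

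The Rif1 probe itself read 5.55 in untreated cells, 5.42 with control siRNA, 2.15 with Rif1 siRNA at 48 h and 4.15 at 72 h. It was 2.53-fold lower than the control siRNA array at 48 h and 1.31-fold lower at 72 h. Of 13 probes for ES cell markers, 0 moved over 2-fold at either time. Of 4 fibroblast probes, 0 moved over 2-fold, and their summed level, most of it Thy1, was between 3.79 and 4.43. Col1a1 read 0.340, 0.341, 0.493 and 0.601 in the order untreated, control siRNA, 48 h and 72 h, and Col1a2 read 0.316, 0.309, 0.451 and 0.545. Both collagen probes were thus higher on the Rif1 siRNA arrays, by 1.76-fold and 1.77-fold at 72 h. Of the 4 primitive endoderm probes and the 4 mesoderm and neural probes tested, 0 moved over 2-fold. Of 3 trophectoderm probes, that of Cdx2 was 2.11-fold higher at 72 h than with control siRNA. It read 0.0344, 0.0500, 0.0721 and 0.106 in untreated cells, control siRNA, 48 h and 72 h, while the summed level of the 3 probes went from 0.0905 in untreated cells and 0.103 with control siRNA to 0.143 and 0.169. The part of these cell type markers in the members' values was not tested. Of all spots, 58.8% were well above background on the untreated array, 62.8% on the control siRNA array, 71.5% on that of 48 h and 74.1% on that of 72 h, so more dim probes were measured on the Rif1 siRNA arrays. The part of this in the members' values was not tested either.

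Members of the cluster resemble each other closely, and the probes differ in how well they can tell them apart. Among the 105 pairs of member probes, 4 pairs from 6 probes shared a run of at least 16 bases. At one stretch, probes of 4 genes could be aligned, and it is shown because the Tdpoz1 probe moved against those of the other genes. Capitals mark the 35 bases that were the same in all 4 probes when each was aligned to the Gm10696 probe with gaps allowed, and each sequence runs 5′ to 3′ along the transcript. The positions are those of the array files (mm9).
Gm10696 probe A_55_P2099991, chr3:93979427-93979486, minus strand: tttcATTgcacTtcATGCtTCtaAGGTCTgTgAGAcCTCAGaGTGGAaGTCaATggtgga
Gm10697 probe A_55_P1959788, chr3:93764238-93764296, minus strand: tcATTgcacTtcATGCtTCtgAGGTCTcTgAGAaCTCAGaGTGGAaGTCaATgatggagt
Tdpoz4 probe A_55_P2076585, chr3:93601262-93601321, plus strand: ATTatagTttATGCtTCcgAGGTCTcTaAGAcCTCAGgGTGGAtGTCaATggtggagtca
Tdpoz1 probe A_55_P1970284, chr3:93474403-93474462, minus strand: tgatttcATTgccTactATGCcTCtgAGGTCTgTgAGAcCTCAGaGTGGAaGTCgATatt

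Against the Gm10696 probe, the Gm10697 probe matched at 54 of 58 aligned bases (93.1%), the Tdpoz1 probe at 49 of 55 (89.1%) and the Tdpoz4 probe at 46 of 56. The longest run without a mismatch was 28 bases and lay between Tdpoz1 and Gm10696. A second stretch was shared by probes of Tdpoz2, Tdpoz3 and Gm9125. Its first 30 bases are shown for each probe with the 24 bases common to the alignments, gaps allowed, in capitals, since the 3 probes align there. The best alignment of the Tdpoz2 probe covered only 27 bases of the Gm9125 probe (25 matched) and 30 of the Tdpoz3 probe (26 matched). With the Gm4858 probe A_55_P2039761, not shown here, the Tdpoz2 probe matched at 43 of 60 bases. Both stretches were picked for display after the sequences were seen.
Gm9125 probe A_55_P1970287, chr3:93852944-93853003, minus strand: GCTTCTGCAcAGTGtTcTTTCTTGGAGccg
Tdpoz3 probe A_55_P2060736, chr3:93630980-93631039, plus strand: GCTTCTGCAaAGTGtTcTTTCTTGGAGcca
Tdpoz2 probe A_55_P2010596, chr3:93455493-93455552, minus strand: ccctgGCTTCTGCAcAGTGTTTTCTTGGAG

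Over their whole length the Gm9125 and Tdpoz3 probes matched at 53 of 60 bases (88.3%). The array files also list a transcript of Tdpoz5 for both Gm10697 probes and one of Tdpoz1 for the Gm9125 probe A_55_P1970287. No probe was therefore particular to Gm10697. Values of these genes are therefore uncertain as values of a single gene. How much signal crossed between members could not be read from the arrays.

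In cells given Rif1 siRNA for 72 h, 12 of the 15 member probes exceeded their control siRNA level by more than 2-fold, and 0 fell short of it by more than 2-fold. Across all 29186 probes well above background on at least 1 of the 2 arrays, 2.85% passed 2-fold upward and 1.54% downward. The median log2 difference of the members was 3.61, or 12.2-fold, against −0.05 over the 26222 of these probes that had a fold change or a bound (2964 had no bound above 1). The median was 2.56 with normexp background correction and its added offset of 50, called normexp below, and 4.96 with dim signals as given, so its size, and that of the bounds below, depends on how low signals are treated. For 9 of the 15, the control siRNA signal was not well above background. The dim side was then raised to the lowest detected level of that array, unless the probe's own level was above it, and the resulting bound is written as "at least". The 6 probes measured on both arrays had a median log2 difference of 2.70, or 6.52-fold, and 4 of these 6 were over 2-fold higher. Of all 24312 probes measured on both arrays, 515 were over 2-fold higher. By gene, for which no share over the whole array was counted, all probes of 6 genes passed 2-fold and so did 1 of the 2 probes of Gm4858. Of the 2 Tdpoz1 probes, one was lower and the other had a bound of at least 1.44-fold, which does not settle whether it rose past 2-fold.

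**Figure D1:**
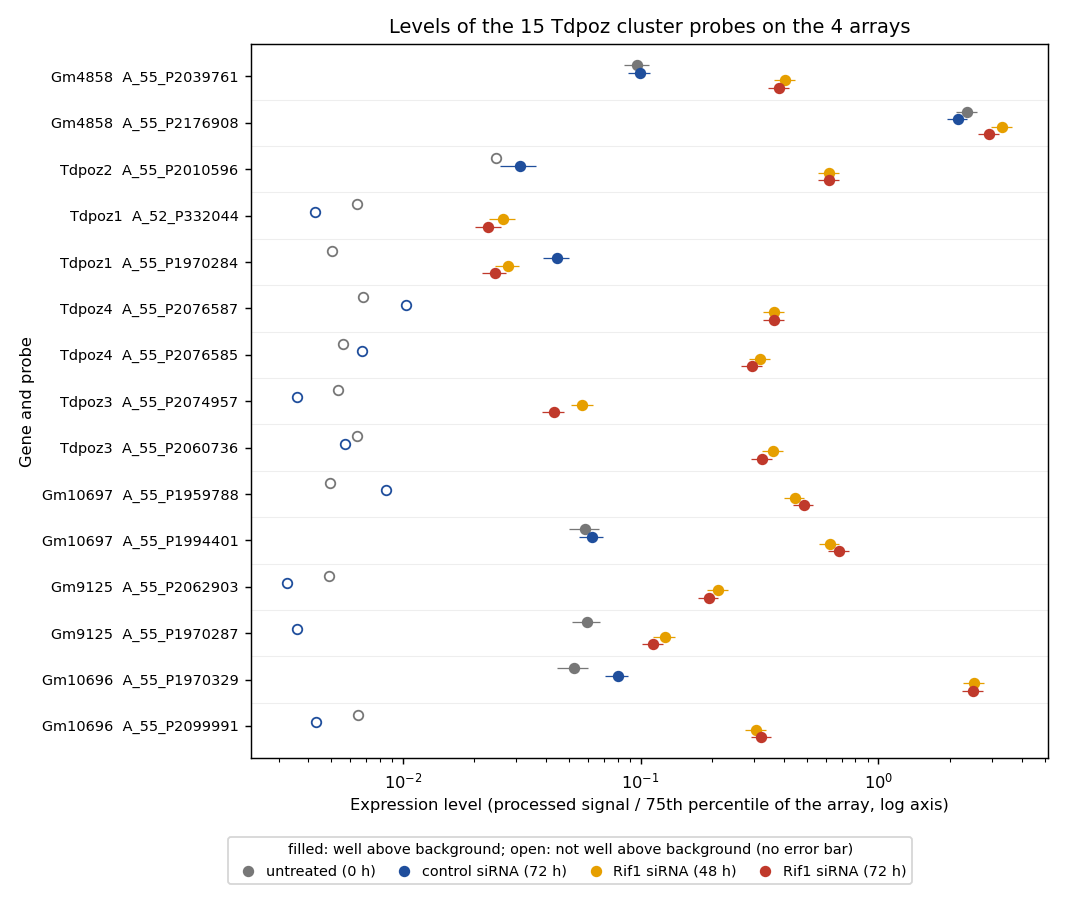
Expression level (processed signal over the 75th percentile of the array, log axis) of each Tdpoz cluster probe on the 4 arrays, 1 point per array, with the software's error of the spot as a bar where the probe was well above background. Open points were not well above background, and in most rows the untreated and control siRNA points lie far to the left of the pair of Rif1 siRNA points, while the Tdpoz1 probe A_55_P1970284 does not follow this order.

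Gm10696 (Spopfm2) had the highest rise measured on both arrays. Its probe A_55_P1970329 (chr3:93978376-93978434) read 0.0524 ± 0.00787 in the untreated sample, 0.0799 ± 0.00891 in that given control siRNA, 2.52 ± 0.252 at 48 h and 2.49 ± 0.249 at 72 h. It was well above background on all 4 arrays, and the Rif1 siRNA arrays lay far above the others. The difference at 72 h was 4.96 ± 0.22 on the log2 scale, or 31.2-fold. The second Gm10696 probe, A_55_P2099991, read 0.00645 and 0.00429 without Rif1 siRNA, both not well above background, and 0.305 ± 0.0306 and 0.322 ± 0.0323 with it. It was at least 20.3-fold higher at 72 h, so both probes of this gene moved the same way. With normexp the log2 differences of the 2 probes were 4.32 and 2.56.

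Both probes named Gm10697, which are also listed for Tdpoz5, rose. The probe A_55_P1994401 (chr3:93764548-93764607) read 0.0582 ± 0.00845, 0.0623 ± 0.00743, 0.623 ± 0.0623 and 0.684 ± 0.0684 in the order untreated, control siRNA, 48 h and 72 h. It was measured on every array and was higher at 72 h than with control siRNA by 3.46 ± 0.22 on the log2 scale. Its other probe, A_55_P1959788, read 0.00493 and 0.00847 on the first pair of arrays, where it was not well above background, then 0.444 ± 0.0444 and 0.484 ± 0.0484. Here the change was at least 30.5-fold. With normexp the log2 differences were 2.70 and 3.34 for these 2 probes.

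Tdpoz2 was represented by 1 probe, which read 0.0246 in untreated cells, where it was not well above background. With control siRNA it read 0.0310 ± 0.0054, and with Rif1 siRNA 0.618 ± 0.0618 at 48 h and 0.618 ± 0.0619 at 72 h. The log2 difference from control siRNA at 72 h was 4.32 ± 0.29, and 3.03 with normexp. The Tdpoz2 probe overlaps in sequence with the Gm9125 probe shown above, with 25 of 27 aligned bases the same.

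Tdpoz4 and Tdpoz3 were not well above background on either array without Rif1 siRNA, by all 4 of their probes. The Tdpoz4 probe A_55_P2076587 (chr3:93600794-93600853) read 0.00682, 0.0103, 0.363 ± 0.0364 and 0.365 ± 0.0366 in the same order. The other Tdpoz4 probe read 0.00562, 0.00671, 0.317 ± 0.0318 and 0.293 ± 0.0293. At 72 h these were at least 23.0-fold and at least 18.4-fold higher than control siRNA, while normexp gave log2 differences of 2.66 and 2.59, below those bounds. For Tdpoz3, the probe A_55_P2060736 read 0.0064, 0.00569, 0.360 ± 0.0361 and 0.323 ± 0.0323, a change of at least 20.3-fold (log2 difference 2.57 with normexp). The second Tdpoz3 probe, A_55_P2074957 (chr3:93630374-93630433), read 0.00534, 0.00358, 0.0568 ± 0.00594 and 0.0431 ± 0.00454. Its change of at least 2.72-fold is a lower bound, so the 2 probes cannot be said to differ in fold. The call of this second probe was lost with normexp (log2 difference 0.59), whose offset alone shrinks the folds of dim probes, and with untreated cells as the reference (at least 1.83-fold).

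Both probes named Gm9125 (Tdpoz9), of which A_55_P1970287 is also listed for Tdpoz1, rose over control siRNA. For A_55_P1970287 the size of the rise depended on which array served as the reference. The probe A_55_P2062903 (chr3:93851903-93851962) read 0.00489 and 0.00327 without Rif1 siRNA, neither well above background, and 0.211 ± 0.0212 and 0.193 ± 0.0194 with it. That was at least 12.2-fold over control siRNA and at least 8.2-fold over untreated cells. Both bounds use the lowest detected level of the reference array, so they do not show that the rise differed. The probe A_55_P1970287 read 0.0592 ± 0.00798 in the untreated sample, 0.00358 in that given control siRNA, 0.126 ± 0.0128 at 48 h and 0.113 ± 0.0114 at 72 h. It was at least 7.1-fold higher than control siRNA at 72 h but only 1.90-fold higher than untreated cells, where the same probe was well above background. With normexp the log2 differences from control siRNA were 2.26 and 1.51 for the 2 probes.

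Gm4858 (Tdpoz8) lies apart from the other members, with 576 kb between its probes and that of Tdpoz2. Its probe A_55_P2039761 (chr3:92878478-92878538) read 0.0967 ± 0.0114, 0.0989 ± 0.0107, 0.404 ± 0.0405 and 0.383 ± 0.0383, and was 3.87-fold higher at 72 h (1.95 ± 0.21, log2). This member was thus measured on both arrays without Rif1 siRNA, as were Gm10697 by A_55_P1994401 and Gm10696 by A_55_P1970329. Its fold was below those measured on both arrays for Gm10697, Tdpoz2 and Gm10696. The software's errors cover 1 scan, so whether these genes differ in rise is not settled. Its other probe, A_55_P2176908 (chr3:92879368-92879427), read 2.36 ± 0.236, 2.15 ± 0.216, 3.32 ± 0.332 and 2.92 ± 0.292. The change of 1.35-fold (0.44 ± 0.20, log2) stayed within 2-fold. That probe shares a run of 22 bases with probes of Pla2g16 and of the transcript AK135063 and of 16 bases with a probe of Ptges, all on other chromosomes. At 72 h they read 1.12-fold, 1.32-fold and 1.32-fold higher than control siRNA.

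The 2 probes named Tdpoz1 gave no rise past 2-fold that could be called, while the probe A_55_P1970287, named Gm9125 but listed for both genes, did. The probe A_52_P332044 (chr3:93474239-93474298) read 0.00641 and 0.00426 without Rif1 siRNA, not well above background, and 0.0263 ± 0.00336 and 0.0229 ± 0.00285 with it. The bound at 72 h was at least 1.44-fold, and with the dim signal as given the log2 difference was 2.43, so a rise past 2-fold was not settled. The probe A_55_P1970284, printed above, read 0.00501 in untreated cells, not well above background, 0.0443 ± 0.00554 with control siRNA, 0.0276 ± 0.00321 at 48 h and 0.0243 ± 0.00277 at 72 h. It was 1.82-fold lower with Rif1 siRNA than with control siRNA at 72 h (−0.86 ± 0.24, log2) and 1.60-fold lower at 48 h. Against untreated cells it was at least 1.03-fold higher, so its direction turned with the reference array. The Gm10696 probe A_55_P2099991, with which it shares 28 bases in a row, was at least 20.3-fold higher on the same pair of arrays.

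**Figure D2:**
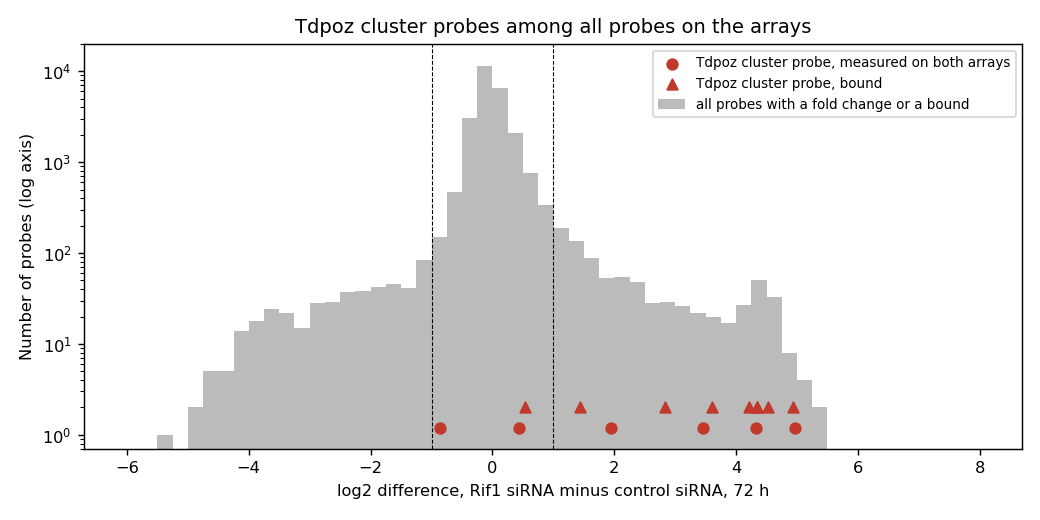
Number of probes (log axis) by their log2 difference at 72 h (Rif1 siRNA minus control siRNA), in grey for the 26222 probes with a fold change or a bound, with the Tdpoz cluster probes as red points at arbitrary heights. Of the 15 red points, 12 lie to the right of the dashed line at 2-fold, and 1 Tdpoz1 point lies at −0.86.

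The rise was already in place at 48 h. Against the same control siRNA array, 12 of 15 probes were over 2-fold higher at 48 h, with a median log2 difference of 3.73 (13.3-fold), and 0 were over 2-fold lower. Over all 28215 probes tested, these shares were 3.34% and 1.78%. A comparison of the 2 Rif1 siRNA arrays, which does not use the control, had all 15 probes measured on both sides. There, 0 of 15 moved past 2-fold, against 0.983% of all probes higher and 1.41% lower at 72 h. The differences from 48 h to 72 h ran from −0.40 for the Tdpoz3 probe A_55_P2074957 to 0.13 for both Gm10697 probes, with a median of −0.12. Of the 15 probes, 5 were higher and 10 lower at 72 h, and the software's error of each difference was 0.20 to 0.26. Only that Tdpoz3 difference was larger than its own error.

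The cells without Rif1 siRNA give the background for these members. Between control siRNA and untreated cells, 8 of the 15 probes were not well above background on either array. Of the 7 others, 0 were over 2-fold higher and 1 was over 2-fold lower with control siRNA, namely the Gm9125 probe A_55_P1970287 (at least 3.73-fold). All probes gave 0.931% higher and 1.75% lower. The 4 probes measured on both arrays differed by between −0.13 (Gm4858) and 0.61 (Gm10696) on the log2 scale, where the SD over all 22548 probes measured on both arrays was 0.256. That SD mixes the siRNA and the array, and is not a replicate SD. With untreated cells as the reference for Rif1 siRNA at 72 h, 10 of 15 probes were over 2-fold higher and 0 lower, with a median log2 difference of 3.59, while all probes gave 2.49% and 1.98%.

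The interval around the cluster was examined next, through the 196 other probes that the array files place between 91 and 96 Mb of chromosome 3. Between the Tdpoz2 and Gm10696 probes (chr3:93455493-93979486, 524 kb) lay 4 other probes, and all 4 passed 2-fold upward at 72 h. Their median log2 difference was 3.93. The brightest at 72 h, A_55_P2081540, read 0.0870, 0.0923, 1.73 and 1.94 in the same order of arrays, a 21.0-fold rise over control siRNA. NAP028851-1 read 0.0498, 0.0626, 1.56 and 1.68, and rose 26.8-fold. A_55_P2035789 rose at least 11.1-fold and ENSMUST00000090853 at least 6.33-fold. These carry no member symbol. A_55_P2035789 and ENSMUST00000090853 share 18 and 17 bases in a row with the probes of Gm10697 and Tdpoz2, and whether signal crossed between them was not tested. In RefSeq, the stretch from Tdpoz2 to Spopfm2 holds 21 genes, of which 13 are pseudogenes. The 8 protein-coding genes are, in order, Tdpoz2, Tdpoz1, Tdpoz4, Tdpoz3, Tdpoz5, Tdpoz9, Tdpoz7 and Spopfm2. The mm9 positions of the Gm10697 probes lie between those of Tdpoz3 and Gm9125 (Tdpoz9), which is the place of Tdpoz5 in this order, so their values cannot be assigned to Tdpoz7 rather than Tdpoz5.

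Outside that stretch, most probes tested did not pass 2-fold at 72 h. Among all probes tested on the array, 2.85% were over 2-fold higher and 1.54% lower. Between Gm4858 and Tdpoz2, 1 of 10 probes tested was over 2-fold higher, that of Tchh (trichohyalin, a hair follicle protein), which rose 3.83-fold at 72 h and 6.21-fold at 48 h. S100a10, the closest gene on that side, read 6.78, 6.29, 6.87 and 6.50 on the 4 arrays. Before Gm4858, 2 of 33 probes were higher and 2 lower. The higher ones were Sprr2e (at least 11.1-fold), a precursor of the cornified envelope of skin, and Lce1i (at least 2.14-fold). At 48 h their bounds were at least 10.4-fold and at least 1.14-fold. Beyond Gm10696, 3 of 102 probes were higher, namely Tdrkh (2.01-fold), AK080246 (at least 3.72-fold) and Ctsk (at least 2.21-fold), and 2 were lower. At 48 h, 1 of 99 probes there was higher, that of Tdrkh (2.22-fold), and 1 was lower. Them4, the first gene on that side, read 1.80-fold higher. The median log2 difference outside was −0.08 before Gm4858, −0.15 between Gm4858 and Tdpoz2 and −0.12 beyond Gm10696. No test was possible between these counts.

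**Figure D3:**
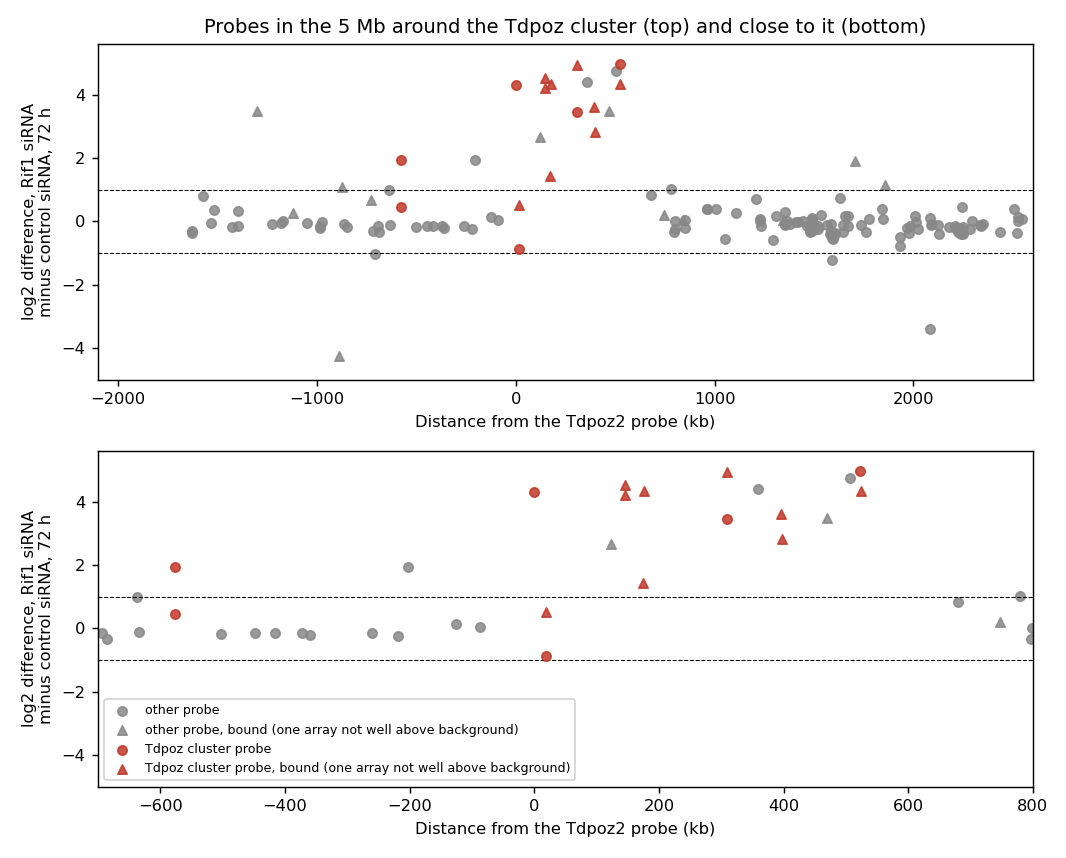
Log2 difference at 72 h (Rif1 siRNA minus control siRNA) of each probe against its distance in kb from the Tdpoz2 probe, for the whole interval (top) and for the cluster (bottom), with bounds as triangles and 2-fold as dashed lines. Red Tdpoz cluster points and the 4 grey points among them fill the band between 2 and 5 over the 524 kb from Tdpoz2 to Gm10696, except the Tdpoz1 probes and 1 Tdpoz3 probe, while most grey points on both sides lie near 0.

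Genes that act with or resemble the members were looked at through fixed lists. Of 6 listed MATH-BTB relatives of the members, 2 had probes under their symbols, Spop and its close relative Spopl, and the other 4 were not measured under theirs. Of the 5 Spop and Spopl probes tested, 0 moved over 2-fold at either time. The brightest Spop probe read 3.53, 3.22, 2.42 and 2.84, or 1.13-fold lower than control siRNA at 72 h. Cul3, the scaffold on which BTB adaptors dock, read 1.38, 1.40, 1.37 and 1.35. Of 15 probes for CUL3, its ring protein RBX1 and factors that add or remove NEDD8 or exchange the adaptors, and NEDD8 itself, 0 moved over 2-fold, with log2 differences between −0.28 and 0.13 at 72 h. The same count was 0 of 45 for other BTB adaptors of CUL3 such as Keap1. At 72 h, 2.85% of all probes tested were over 2-fold higher and 1.54% lower. The members were chosen for their rise, so their count is not compared with those of these lists.

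The list of regulators of 2C genes also held genes transcribed at the 2C stage, such as Zscan4c. Of 25 probes tested, 6 passed 2-fold upward at 72 h and 0 downward, against 2.85% and 1.54% of all probes. The median log2 difference over the list was 0.10. The 6 probes belonged to Zscan4c, Zscan4f, Zfp352 and Dux. No tested probe of Kdm1a, Trim28, Chaf1a, Chaf1b, Rybp, Pcgf6, Max, Setdb1 or Nr0b1 passed 2-fold at 72 h. For Zscan4c, a zinc finger gene of the 2C stage, 3 probes rose 19.0-fold, 24.0-fold and 21.6-fold, and for Zscan4f 1 probe rose 13.1-fold. One Zfp352 probe rose at least 20.4-fold while the other read 1.09-fold higher. Dux, which encodes a homeodomain activator of 2C genes, was at least 2.38-fold higher by one probe and 1.30-fold higher by the other. Listed genes of the epidermal differentiation complex lie before Gm4858 and between Gm4858 and Tdpoz2. Among their 19 tested probes, 2 were higher and 2 were lower. The list does not include Sprr2e, a gene of the complex named above with a rise of at least 11.1-fold. One of the lower ones, Lce1h, was at least 19.1-fold lower at 72 h and at least 13.3-fold lower at 48 h, and it was well above background on the control siRNA array but not in untreated cells.

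The profile over the 4 arrays was also compared with those of the 22514 other probes well above background on all of them. Likeness was the distance between the 3 log2 differences from the control siRNA array and the member median, which was −0.03 for untreated cells, 4.98 at 48 h and 4.96 at 72 h with dim signals as given. Only 4 of the 15 member probes were well above background on all 4 arrays, so this median rests mostly on dim signals, and with bounds it was 3.73 at 48 h and 3.61 at 72 h. The distances inherit that limit, and the order among the nearest probes was not read. The nearest 10 had distances from 0.50 to 0.97 and were 1 probe each of NAP028851-1, Gm7104, D13Ertd608e, NAP018810-001, Usp17lc and A_55_P2081540 and 2 each of ENSMUST00000159087 and Gm4312. NAP028851-1 and A_55_P2081540 lie inside the cluster, D13Ertd608e was not placed on a chromosome here, and the rest lie on chromosomes 1, 7, 10 and 12. The profile is the same rise that chose the members, so this is a description.

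RefSeq start sites (GRCm38.p6) were available for 6 of the 8 genes as 7 windows, each from 250 bases before to 50 bases after a start. The Tdpoz7 window was taken for Gm10697, whose probes may read Tdpoz5 instead. The windows fell into 2 kinds. Tdpoz1, Tdpoz9 and Spopfm2 and the first start of Tdpoz8 matched each other over 222 to 272 bases, whereas Tdpoz4, Tdpoz7 and the second start of Tdpoz8 matched each other over 149 to 284. Between the kinds at most 76 bases matched. The windows of Tdpoz1 and Tdpoz9 were the same at 272 of 273 aligned bases (99.6%).

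**Figure D4:**
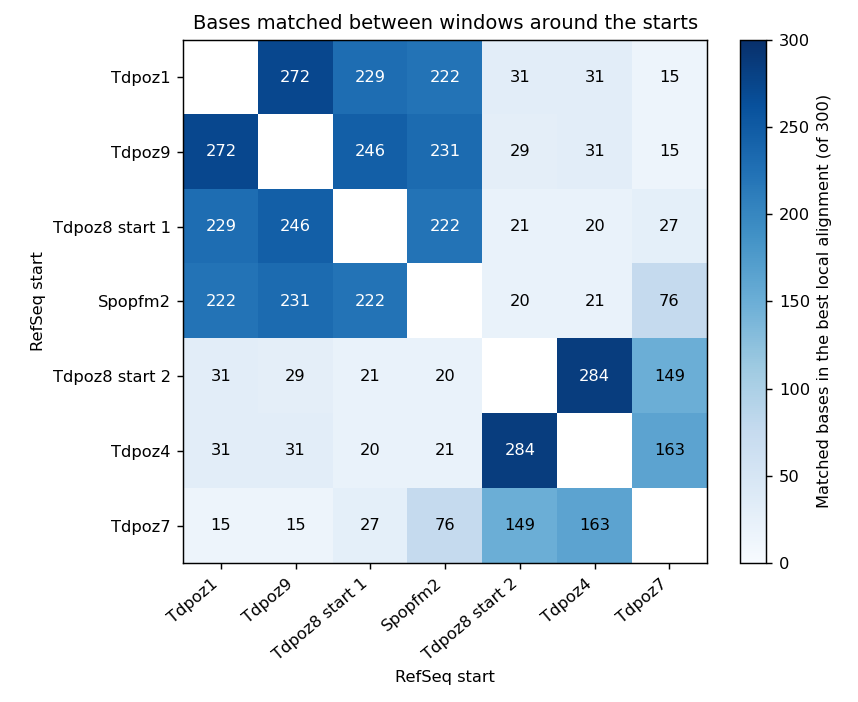
Number of identical bases in the best local alignment of each pair of 300-base windows around RefSeq starts of Tdpoz cluster genes, shown as shades and numbers. Dark blocks set Tdpoz1, Tdpoz9, Tdpoz8 start 1 and Spopfm2 apart from Tdpoz8 start 2, Tdpoz4 and Tdpoz7.

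The 170 bases before the start are printed for the first kind because these 4 windows share a TATA box and a repeated stretch. Capitals mark each TATATAA and each CACACCTT, and sequences are given 5′ to 3′ along the gene with the RefSeq positions of GRCm38.p6, which must not be set against the mm9 positions above.
Tdpoz8 start 1, chr3:93068653-93068822, plus strand: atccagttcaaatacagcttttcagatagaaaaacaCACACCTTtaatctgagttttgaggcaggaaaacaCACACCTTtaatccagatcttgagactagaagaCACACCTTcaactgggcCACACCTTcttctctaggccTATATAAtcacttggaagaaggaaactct
Tdpoz1, chr3:93676284-93676453, minus strand: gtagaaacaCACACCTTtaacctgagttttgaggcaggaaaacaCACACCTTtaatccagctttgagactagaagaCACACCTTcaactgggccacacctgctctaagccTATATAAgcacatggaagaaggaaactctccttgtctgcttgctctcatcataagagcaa
Tdpoz9, chr3:94054886-94055055, minus strand: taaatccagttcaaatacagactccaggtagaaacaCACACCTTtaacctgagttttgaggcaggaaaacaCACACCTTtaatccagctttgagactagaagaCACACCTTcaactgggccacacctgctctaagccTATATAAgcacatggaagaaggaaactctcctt
Spopfm2, chr3:94178194-94178363, minus strand: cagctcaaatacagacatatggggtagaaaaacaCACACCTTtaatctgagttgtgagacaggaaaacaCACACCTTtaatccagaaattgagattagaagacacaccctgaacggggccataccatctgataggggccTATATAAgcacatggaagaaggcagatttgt

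Each of the 4 held 1 TATATAA, which occurs on either strand in 3.24% of the 32851 RefSeq windows of this length. CACACCTT was present 4 times at the first start of Tdpoz8, 3 times in Tdpoz1 and in Tdpoz9 and 2 times in Spopfm2. It occurs at least once in 1.39% of all windows and at least 3 times in 0.0761%. The TATATAA began 29, 33 and 31 bases before the start of Tdpoz8, Tdpoz9 and Spopfm2 and 60 bases before that listed for Tdpoz1. TAATCC, a motif bound by bicoid-class homeodomains, was found once in each of the 4 windows (7.06% of all windows). In each it directly followed a CACACCTT, and the 4 windows are alike in sequence, so these matches are not separate from those of CACACCTT or from each other. The second kind held none of these 3 motifs. TTTTCAGGT, which resembles the end of an intron, was found at the second start of Tdpoz8 and in Tdpoz4 (0.374% of all windows). The Tdpoz7 window holds TTTTCAGAT at a similar distance from its start, 1 letter off, which this search did not count. The window of the first start of Tdpoz8 holds those letters too, farther from the start. How often they occur in all windows was not counted, and whether any listed start lies at an intron end was not tested. GATTNAATC, a core of the Dux motif, was found in 0 of the 7 windows (0.268% of all windows), which says only that these letters are absent there on both strands. CACACCTT and TTTTCAGGT were searched for after the windows had been seen. Matches of letters describe the windows and show no binding.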

How the data were processed

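Total RNA of 4 E14tg2a samples was labeled with Cy3 and hybridized to Agilent mouse arrays, 1 per condition, as grouped by the labels. The authors deposited the output of Agilent Feature Extraction 11.5.1.1, in which each spot has a processed signal as an intensity, after background subtraction and detrending, with an error and flags. The authors also deposited a table of these signals as a linear ratio to the array's 75th percentile. Probe positions in the array files are on mm9.

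Here each processed signal was divided by the array's own 75th percentile (43020 spots without controls), and differences were taken on the log2 scale, which the deposited values are not. Outlier spots (120 to 152 per array) were left out, repeated probes were averaged, and each member probe had 1 spot that was neither an outlier nor saturated. Bounds used the lowest detected level of each array, which was 0.0236 for untreated cells, 0.0159 for control siRNA, 0.00779 at 48 h and 0.00543 at 72 h. No fold change was given where both arrays were dim or a bound was under 1. Having 1 array per condition limits the precision.

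The members and gene lists were chosen with earlier results of these data known. Named were all member probes, list genes over 2-fold at both times, probes of the interval over 2-fold higher at 72 h (up to 10, brightest first), the 10 nearest profiles, and Spop, Cul3 and Rif1. Outside this rule, some cell type markers, some other list genes, probes sharing bases with members and the neighbours S100a10 and Them4 were also named. Probe sequences came from the array files, and start windows, current symbols and gene order from RefSeq (GRCm38.p6); all 8 members were matched by accession and 6 had a window. Probe positions within exons were not examined, since no mm9 annotation was used here. Python 3.11.15 (pandas 2.3.3, numpy 2.4.6, matplotlib 3.10.9) and R 4.3.3 (limma 3.58.1, for normexp and quantile normalization) were used. The 2-fold calls were tested on simulated data, with known changes placed only in probes well above background. The alignments, motif counts and likeness were not tested in this way.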

Additional observations from a re-analysis of the deposited data

How the results depend on the processing

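No paired analysis was possible because the groups hold 1 array each. At 72 h against control siRNA, the members' median log2 difference of 3.61 became 2.56 with normexp background correction and an offset of 50, 4.96 with dim signals as given, 2.70 over the 6 probes detected on both arrays, and, with alternatives chosen after seeing the data, 4.21 without the Tdpoz1 probes and 3.89 with the brighter probe of each gene. The count of members over the threshold went from 12 to 4 over those 6 probes and to 6 of 8 with 1 probe per gene. Among all probes, 833 were higher and 450 lower. These became 427 and 227 with normexp, 515 and 239 for probes detected on both arrays and 370 and 238 at a 4-fold threshold, and 1836 were higher with dim signals as given. In the last 3 of these settings fewer or more probes count by construction, and the offset of 50 shrinks folds of dim probes by construction, so its part and that of the background model were not separated. A value was taken to have moved past 0.256 (log2, the SD of control siRNA against untreated cells) and a count past 1.5 times. Quantile normalization, the deposited ratios, the percentile over detected probes and kept outlier spots moved 0 of the 15 single probes each. Normexp moved 14, dim signals as given 9, untreated cells as reference 11 of 14, and 48 h in place of 72 h 1, and 0 changes of over 2-fold reversed. With runs of 12 or 20 bases in place of 16, 6 and 2 pairs of member probes shared a run. Dim signals and the single array per condition limit the folds.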
